A study of Homo sapiens with 6 samples.

Results

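The comparison concerns the breast cancer cell lines MDA-MB-415 and T47D, 2 of the 6 lines in the study, paired because both carried transcripts of the estrogen receptor gene *ESR1* without strong expression of *ERBB2*, the receptor gene amplified in some breast tumours. Each line gave 1 RNA-seq library, so every difference below is a difference between 1 library of MDA-MB-415 and 1 library of T47D, with no replicate error and no test. Both are established epithelial lines grown from pleural effusions, MDA-MB-415 labelled adenocarcinoma and T47D ductal carcinoma, and the labels give no treatment. MDA-MB-415 grew in L-15 medium with 15% serum, 10 mcg/ml insulin, 10 mcg/ml glutathione and 2 mM glutamine, and T47D in RPMI 1640 with 10% serum, so line and medium cannot be told apart. The other 4 lines, UACC-812, SKBR3, MDA-MB-453 and CAL51, also with 1 library each, are used only to show on which side a difference lay. Their media were not all alike. UACC-812 grew with 20% serum, 20 ng/ml EGF and 2 mM glutamine, and MDA-MB-453 with 20% serum. SKBR3 grew in RPMI 1640 with 20% serum, and CAL51 in RPMI 1640 with 10% serum, as T47D did. A range over these lines therefore mixes line and medium.

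Values were taken from their range and steps to be RPKM, read counts scaled by exon length and library size, summed over the exons of a gene. Genes of many exons thus reach higher levels, and levels are compared between lines and not between genes. From the steps between low values of single-exon genes, the libraries held about 30200000 reads in MDA-MB-415 and 29200000 in T47D, and 25600000 to 36400000 over all 6 lines. A gene with a 150 bp exon and 3 reads would stand at 0.662 in MDA-MB-415 and 0.686 in T47D, so values under about 1 rest on few reads. Differences are MDA-MB-415 minus T47D on the log2(value + 1) scale, after the median difference over all 16418 genes, -0.145, was removed, so that a difference as deposited is lower by that amount. This scale understates the change of low genes, and for a gene listed at 0 in either line levels are given without a fold. A gene was counted as apart when it differed at least 4-fold, a difference of 2 on this scale.

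*ESR1* stood at 83.0 in MDA-MB-415, against 284 in T47D and 166 in UACC-812, and was 0.0522 in SKBR3, 0.0260 in MDA-MB-453 and 0 in CAL51. *ERBB2* stood at 1122 in MDA-MB-415 and 2745 in T47D, against 49826 in UACC-812, 25464 in SKBR3, 6356 in MDA-MB-453 and 1621 in CAL51. *EPCAM*, an epithelial adhesion molecule, was 1864 and 1328, and *CDH1*, which encodes E-cadherin, 1774 and 3978. *VIM*, the mesenchymal filament gene vimentin, was low in both lines, at 26.6 in MDA-MB-415 and 28.6 in T47D against up to 2810 elsewhere.

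The estrogen receptor is a hormone-dependent transcription factor that drives growth of luminal breast cells, and the progesterone receptor gene and *GREB1* are among its best known targets. Interferons act through JAK kinases and STAT factors on genes of antiviral defence and of antigen presentation, where *B2M* encodes the light chain that every class I HLA molecule needs at the cell surface. The factor NF-kB turns on chemokines, adhesion molecules and acute phase proteins in inflamed epithelium, often at the same genes as the interferon pathway.

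The lines were far apart over the whole table. Of 16418 genes, 1734 (10.6%) were at least 4-fold higher in MDA-MB-415 and 1287 (7.84%) at least 4-fold lower, while 9308 (56.7%) lay within 2-fold. As deposited, with the median kept, the counts were 1580 (9.62%) and 1493 (9.09%). The 4-fold counts of list members below are to be read beside 10.6% higher and 7.84% lower, the shares over all genes. Of the higher genes 409 were listed at 0 in T47D, and of the lower genes 154 were listed at 0 in MDA-MB-415. Genes at high levels leaned low in MDA-MB-415, with a median difference of -0.20 where the mean log2 level was 9 or more against 0.05 where it was 1 to 3. Among the 15 pairs of the 6 lines, ranked from most to fewest genes apart, the pair stood ninth with 3021, between 4329 for MDA-MB-415 against CAL51 and 2098 for UACC-812 against T47D. The other 6 pairs had fewer genes apart, 3 of them pairs of T47D with a line other than CAL51.

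**Figure D1:**
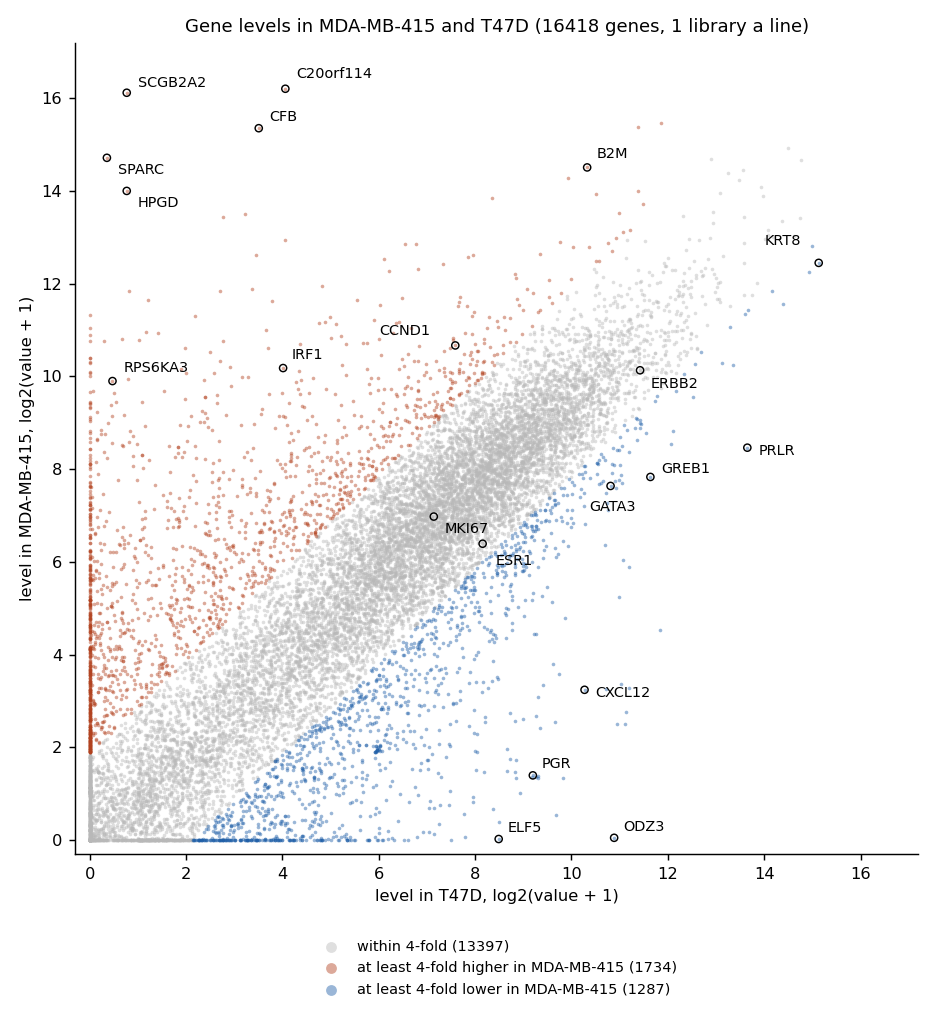
Level of each gene in MDA-MB-415 against its level in T47D, both as log2(RPKM + 1), 1 library a line and 1 point a gene. The 1734 red genes were at least 4-fold higher in MDA-MB-415 and the 1287 blue genes at least 4-fold lower after removal of the median difference; *SCGB2A2*, *CFB* and *SPARC* lie far above the diagonal and *ODZ3*, *PGR* and *PRLR* far below it.

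**Figure D2:**
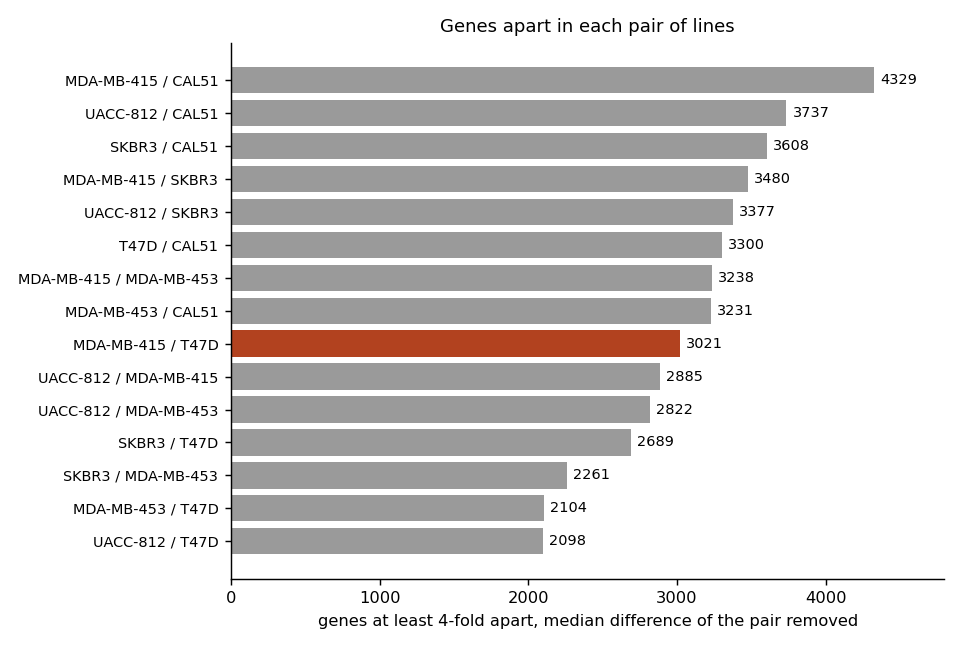
Number of genes at least 4-fold apart in each of the 15 pairs of lines, after the median difference of the pair was removed. The bar for MDA-MB-415 against T47D, in red, reaches 3021 and lies ninth from the top.

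The estrogen-induced genes leaned towards T47D. Of 48 measured genes of that list, 16 were at least 4-fold lower in MDA-MB-415 and 8 at least 4-fold higher, with a median difference of -0.61 against 0 over all genes. *PGR*, the progesterone receptor gene, was 1.63 in MDA-MB-415 and 586 in T47D (difference -7.66), against 108 in UACC-812 and at most 0.639 in the lines without *ESR1*. The *PGR* level of MDA-MB-415 was therefore closer to those of the 3 lines without the receptor transcript than to those of the other lines that carried it. *GREB1*, a cofactor of the estrogen receptor, was 227 and 3185 (-3.66), and here MDA-MB-415 stood with UACC-812 at 355, far above the 0.854 to 2.56 of the 3 other lines. *SCUBE2*, a secreted protein gene, was 5.38 and 618 (-6.46), and *OLFM1*, an olfactomedin gene, 1.83 and 406 (-7.02). *PDZK1*, a scaffold protein gene, was 6.64 and 81.1 (-3.28), and *SGK3*, a kinase gene, 58.5 and 532 (-3.02).

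Not all targets followed *PGR*. *TFF1*, a trefoil peptide long used as an estrogen marker, was low in both lines at 3.24 and 8.34, against up to 2737 elsewhere, and *TFF3* was 15.4 and 7.70. *CA12*, a carbonic anhydrase gene, was 756 and 1055 (-0.34), and *XBP1*, a secretory stress factor, 752 and 387 (1.10). *AGR2*, a protein disulfide isomerase gene of secretory cells, was abundant in both at 10953 and 27489 (-1.18). Higher in MDA-MB-415 were *SERPINA3*, an acute phase protease inhibitor gene, at 4974 against 72.9 (6.22), *CCND1*, which encodes cyclin D1, at 1627 against 192 (3.22), and *PDZK1IP1*, at 529 against a listed 0. *CXCL12*, a chemokine gene of the same list, was 8.45 against 1235 (-6.89), and no other line passed 4.84. *CCND1* is counted again among the neighbouring genes on chromosome 11 described further on.

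Steroid and nuclear receptors lay on both sides. Of 33 measured, *ESR1* and *PGR* among them, 4 (12.1%) were at least 4-fold higher and 4 (12.1%), *PGR* included, at least 4-fold lower. Over all genes the shares were 10.6% and 7.84%, and the list median was -0.16. *NR3C1*, the glucocorticoid receptor gene, was 11.5 and 29.5 (-1.15). *NR2F2*, an orphan receptor gene, was 12.4 and 85.6 (-2.55), *NR4A2*, an immediate early receptor gene, 36.7 and 0.574 (4.73), and *PPARG*, the fat cell receptor gene, 10.4 against a listed 0.

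Among the factors that set luminal identity, *FOXA1*, which opens chromatin for the estrogen receptor, was alike in both lines at 141 and 191 (-0.29). *GATA3*, the partner factor of luminal cells, was 198 in MDA-MB-415 and 1796 in T47D (-3.03), while UACC-812 stood at 1583, MDA-MB-453 at 1533, SKBR3 at 68.7 and CAL51 at 8.28. *ELF5*, the factor of alveolar progenitors, was 0.0157 and 358 (-8.32), with 99.9 in UACC-812 and at most 10.1 in the others. *GRHL2*, an epithelial factor gene, was 193 and 874 (-2.03), although TMM scaling put it inside 4-fold at -1.91. In the opposite direction, *TFAP2B* was 168 against 0.0378 (7.50), *TBX3* 381 against 27.9 (3.87), *KLF5* 69.6 against 1.30 (5.08) and *ELF3* 1095 against 162 (2.90). *TOX3* was 60.1 in MDA-MB-415 and listed at 0 in T47D. Over the 39 luminal factors and partners 9 were higher, 7 lower and the median was -0.19, so the list as a whole did not lean.

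Keratins differed in both directions. Of 8 keratins listed as luminal 4 were at least 4-fold higher in MDA-MB-415, among them the hair keratin genes *KRT81* and *KRT86*, and 2 lower. The paired filament genes of simple epithelium, *KRT8* and *KRT18*, were lower in MDA-MB-415, at 5596 against 35859 (-2.54) and 3040 against 21485 (-2.68), and *KRT19* was 9169 against 17305 (-0.77). *KRT7*, a ductal keratin gene, was higher at 7599 against 866 (3.28), as were *KRT20* at 18.4 against 0.0764 (4.31) and the hair keratin genes *KRT81* and *KRT86* at 1021 and 1671 against 8.71 and 19.6 (6.86 and 6.49). Of 13 basal and squamous keratins, 6 were at least 4-fold higher and 2 lower. *KRT5*, the basal layer keratin gene, was 244 and 2.20 (6.41), with 10.9 the highest level elsewhere. *KRT6A*, *KRT6B* and *KRT6C*, near-identical copies whose reads could be split between them, were 1084, 752 and 749 against 3.02, 4.23 and 4.23. Named after their values were seen, *KRT14*, the partner of *KRT5*, was 91.7 and 109 (-0.10), *KRT15* 341 and 321 (0.23) and *KRT13* 4.08 and 23.3 (-2.12). *KRT23*, an acidic keratin gene, ran the other way at 1.76 against 455 (-7.22), and 9.93 was its highest level in the 4 other lines.

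Basal and myoepithelial genes followed *KRT5* in part. Of 34 measured, 13 were at least 4-fold higher in MDA-MB-415 and 3 lower, with a median of 1.53 that became 0.95 with a pseudocount of 5. *TP63*, the master factor of basal epithelium, was 73.5 and 1.23 (5.21), *SERPINB5*, the maspin gene, 327 and 2.57 (6.67), and *LAMB3*, a chain of the basement membrane laminin, 3290 and 88.9 (5.34). *COL17A1*, a hemidesmosome collagen gene, was 555 against a listed 0. *KIT*, a receptor gene of luminal progenitors, was 87.6 and 0.641 (5.90). The contractile genes did not go along, with *ACTA2*, the smooth muscle actin gene, at 2.82 and 8.04 and *TAGLN*, the transgelin gene, at 10.9 and 28.2. *EGFR*, also a member, was 5.65 and 70.9 (-3.29).

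Secretory genes of the breast held the widest gap in the table. *SCGB2A2*, which encodes mammaglobin A, stood at 71226 in MDA-MB-415 and 0.706 in T47D (15.49), with 160.1 in UACC-812, 17.5 in SKBR3, 0.313 in MDA-MB-453 and 0 in CAL51. Its neighbours *SCGB2A1*, the mammaglobin B gene, and *SCGB1D2*, the lipophilin B gene that pairs with mammaglobin A, were 2117 and 1356 in MDA-MB-415 and listed at 0 in T47D. *PIGR*, the receptor that carries antibodies into secretions, was 3700 and 0.760 (11.18), and *AZGP1*, an apocrine zinc glycoprotein gene, 3228 and 45.7 (6.25). *LCN2*, an iron-scavenging lipocalin gene, was 3700 and 5.50 (9.30). Of 40 measured secretory and apocrine genes, 20 were at least 4-fold higher and 4 lower, with 10 listed at 0 in T47D, and the median was 1.79.

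Some genes tied to secretion were higher in T47D. *PRLR*, the prolactin receptor gene, was 12847 in T47D and 352 in MDA-MB-415 (-5.04), and the 4 other lines ran from 7.10 to 610. *PIP*, the prolactin-induced protein gene, was 911 and 87.0 (-3.23), and both lines lay above the 4 others, which reached 18.4. *SERPINA6*, which encodes the cortisol carrier of plasma, was 358 and 0.312 (-7.95).

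Further genes at or near the top of the table were *C20orf114* and *PLUNC*, BPI-fold proteins of airway mucus, at 75606 and 2569 against 15.7 and a listed 0. *SLC34A2*, a phosphate transporter gene, was 1258 against a listed 0, and *CEACAM1*, an adhesion molecule gene, 565 against 3.31 (7.18). Of 22 mucins and trefoil factors with their glycosylating enzymes, 8 were higher and 1 lower. *MUC5B*, a gel-forming mucin gene, was 167 and 4.90 (4.98), and *MUC13* 47.9 against a listed 0.

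**Figure D3:**
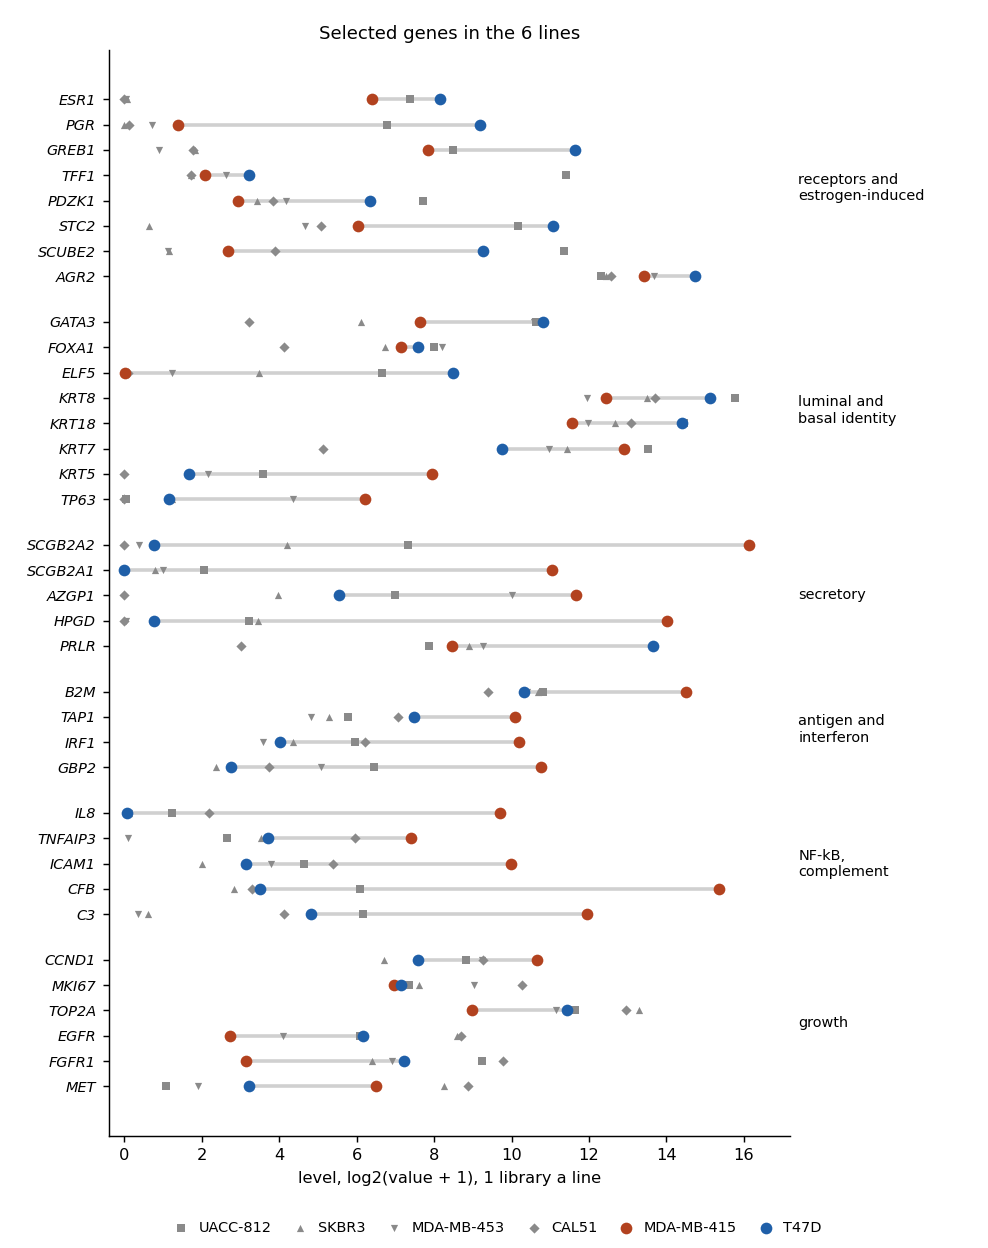
Levels of selected genes in the 6 lines as log2(RPKM + 1), 1 library and 1 point a line, with a grey bar joining MDA-MB-415 (red) and T47D (blue). For *PGR*, *SCUBE2* and *PRLR* T47D lies above MDA-MB-415, and for *B2M*, *IRF1*, *IL8* and *CFB* MDA-MB-415 lies above all 5 other lines.

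*B2M* was 23318 in MDA-MB-415 and 1282 in T47D (4.33), and T47D lay among the other lines, which ran from 670 in CAL51 to 1810 in UACC-812. Of 24 measured genes of class I antigen presentation 16 were at least 4-fold higher in MDA-MB-415 and 1 lower, with a median of 2.62. Heavy chain genes did not all follow *B2M*. *HLA-B* was 31203 and 22970 (0.59), and *HLA-C* 15310 and 16172 (0.07), while neither passed 1388 in any other line. T47D thus held high *HLA-B* and *HLA-C* with *B2M* at the level of the other lines. *HLA-F* was 1287 and 105 (3.74) and *HLA-G* 3149 and 12.7 (7.99). HLA genes are near-identical and vary between people, so reads could be assigned to the wrong gene or lost, and how these genes shared reads was not tested. *PSMB9* and *PSMB10*, catalytic subunits of the immunoproteasome that cuts peptides for class I, were 138 and 393 against 10.9 and 34.2 (3.69 and 3.63). *TAP1*, the peptide transporter gene, named after its values were seen, was 1090.2 and 178 (2.75).

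Interferon-stimulated genes showed the most one-sided count of the 47 lists, which were chosen with earlier results of these data known. Of 73 measured, 54 were at least 4-fold higher in MDA-MB-415 and none lower, against 10.6% and 7.84% of all genes, and at 2-fold 63 were higher and 0 lower, against 21.5% and 21.8%. The median was 3.27 and the members ran from -0.62 to 8.93. *IFI27* was 441 against a listed 0, *EPSTI1* 363 against 0.618 (7.96) and *XAF1*, a proapoptotic factor gene, 309 against 0.865 (7.52). *GBP2*, a guanylate-binding protein gene of defence against microbes in the cell, was 1728 against 5.78 (8.14), and *APOL1*, a lipoprotein gene, 1556 against 2.95 (8.77). *IDO1*, a tryptophan-degrading enzyme gene induced by interferon-gamma, was 516 against 4.20 (6.78).

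The receptors and kinases of the pathway lay on both sides. *IFNAR1*, a receptor chain for type I interferons, was 171 and 291 (-0.61), *JAK1* 1148 and 1700 (-0.42) and *JAK2* 72.9 and 56.1 (0.52). *IFNGR1*, a receptor chain for interferon-gamma, was 572 and 43.9 (3.82), and 93.8 was the highest level elsewhere. Of the transcription factors, *STAT2* was 1944 and 899.5 (1.25) and *STAT3* 3434 and 2085 (0.86). *IRF1*, an activator of class I genes, was 1160.3 against 15.2 (6.31), with 73.1 the highest level elsewhere. *IRF9*, a DNA-binding partner of STAT2, was 277 and 14.6 (4.30), and *IRF7* 118 and 14.5 (3.10). *IRF5* was the one lower member of the 18, at 0.434 and 6.62. Of 48 interferon and cytokine receptors and JAKs, 8 were higher and 7 lower with a median of 0.09.

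The DNA upstream of these genes was examined for short motifs in RefSeq promoters of build GRCh38.p14, searched from 250 bases before to 50 after each start. The interferon-stimulated response element (GAAA, 2 bases of any kind and GAAA again, on either strand) was in 359 of 12358 promoters (2.91%), in 34 of the 54 matched interferon-stimulated genes (63.0%), in 92 of 1298 genes higher in MDA-MB-415 (7.09%) and in 19 of 938 lower (2.03%). Among the higher genes outside the interferon list it was in 64 of 1257 (5.09%). An NF-kB motif (GGGA, 4 bases of any kind and CC, on either strand) was far more common, in 3791 of the 12358 (30.7%), in 33.6% of the higher and 30.9% of the lower, and in 31 of 60 promoters of the NF-kB and chemokine lists (51.7%). The STAT motif TTCNNNGAA, which reads the same on both strands, was in 7.01% of the higher, 7.04% of the lower and 6.62% of all. The estrogen response element (GGTCA, 3 bases of any kind and TGACC), also a palindrome, was in 2 of the 12358 promoters, and neither gene was apart. A match is a run of letters and no evidence of binding. The upstream 250 bases are shown for 7 of 8 examined genes with wide differences, 5 with matches and 2 without, 5′ to 3′ on the strand of the gene, in lower case with response element and NF-kB matches in capitals.
B2M: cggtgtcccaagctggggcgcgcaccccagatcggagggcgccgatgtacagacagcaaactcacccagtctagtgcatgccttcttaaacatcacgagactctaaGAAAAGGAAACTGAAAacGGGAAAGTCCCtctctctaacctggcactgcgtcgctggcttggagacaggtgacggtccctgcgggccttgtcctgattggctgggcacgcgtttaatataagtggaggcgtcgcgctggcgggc
IFI27: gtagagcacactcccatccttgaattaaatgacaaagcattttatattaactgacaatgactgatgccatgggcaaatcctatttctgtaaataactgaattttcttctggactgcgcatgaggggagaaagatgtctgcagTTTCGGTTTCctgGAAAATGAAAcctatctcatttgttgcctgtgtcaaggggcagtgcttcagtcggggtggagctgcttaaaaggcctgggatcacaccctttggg
GBP1: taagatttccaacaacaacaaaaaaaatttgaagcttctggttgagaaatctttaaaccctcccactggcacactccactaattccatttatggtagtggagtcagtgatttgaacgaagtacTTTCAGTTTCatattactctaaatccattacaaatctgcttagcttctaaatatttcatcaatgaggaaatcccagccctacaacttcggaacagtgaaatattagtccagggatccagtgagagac
CFB: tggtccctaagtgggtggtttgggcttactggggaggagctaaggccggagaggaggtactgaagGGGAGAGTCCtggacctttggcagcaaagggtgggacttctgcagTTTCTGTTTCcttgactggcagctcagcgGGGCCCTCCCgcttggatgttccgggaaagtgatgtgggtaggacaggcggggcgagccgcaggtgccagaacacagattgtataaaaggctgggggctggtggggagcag
IL8: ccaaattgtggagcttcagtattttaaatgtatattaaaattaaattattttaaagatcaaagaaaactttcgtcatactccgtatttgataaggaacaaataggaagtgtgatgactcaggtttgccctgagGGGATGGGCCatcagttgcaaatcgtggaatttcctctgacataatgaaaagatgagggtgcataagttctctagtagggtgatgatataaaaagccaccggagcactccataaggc
SCGB2A2: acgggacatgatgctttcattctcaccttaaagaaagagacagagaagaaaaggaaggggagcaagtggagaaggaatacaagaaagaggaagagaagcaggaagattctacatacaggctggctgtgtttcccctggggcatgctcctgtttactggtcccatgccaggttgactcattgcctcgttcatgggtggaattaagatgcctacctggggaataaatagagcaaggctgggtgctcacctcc
PGR: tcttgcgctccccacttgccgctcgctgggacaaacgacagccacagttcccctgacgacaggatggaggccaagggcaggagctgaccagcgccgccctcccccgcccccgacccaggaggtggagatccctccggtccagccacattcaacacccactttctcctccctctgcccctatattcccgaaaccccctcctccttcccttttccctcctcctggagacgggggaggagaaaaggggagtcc

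They lie at chr15:44711267-44711516 on the plus strand for *B2M*, chr14:94110486-94110735 plus for *IFI27*, chr1:89065209-89065458 minus for *GBP1*, chr6:31945845-31946094 plus for *CFB*, chr4:73740319-73740568 plus for *IL8*, now named *CXCL8*, chr11:62269908-62270157 plus for *SCGB2A2* and chr11:101129078-101129327 minus for *PGR*. *B2M* holds 2 overlapping response elements, beginning 144 and 138 bases before the start, followed by 2 overlapping NF-kB matches at 126 and 125, so both motif classes stand side by side upstream of the light chain gene. *IFI27* holds 2 response elements at 108 and 95 bases and *GBP1* 1 at 127. *CFB* holds a response element at 140 between NF-kB matches at 185 and 111. *IL8* holds an NF-kB match at 117 and no response element. *SCGB2A2*, with the widest difference, and *PGR* hold neither motif, and *HPGD*, the gene not printed, holds an NF-kB match at 71. *GBP1*, shown as a gene of the class of *GBP2* and chosen after its values were seen, was 779.9 and 5.29 (7.10).

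Of 38 measured NF-kB subunits, inhibitors and feedback genes, 15 were at least 4-fold higher in MDA-MB-415 and 0 lower, with a median of 1.72. Of the subunits, *RELA* was 791 and 687 (0.35) and *NFKB1* 603 and 214 (1.64). The inhibitors that the factor itself induces lay further apart, *NFKBIA* at 1229 and 238 (2.51), *TNFAIP3* at 168 and 12.1 (3.84) and *NFKBIZ* at 505 and 25 (4.43). *BIRC3*, a survival factor gene, was 389.9 and 3.04 (6.74), *ICAM1*, the adhesion molecule for leukocytes, 1016 and 7.91 (6.98), and *SOD2*, the mitochondrial superoxide dismutase gene, 5120 and 112 (5.65).

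Of 38 chemokines and cytokines, 25 were higher in MDA-MB-415 and 2 lower, with a median of 3.38. *IL8*, the neutrophil attractant, was 828 and 0.0540 (9.77), where the other lines ran from 0.0930 to 3.58. *CXCL1*, of the same family, was 238 and 0.131 (7.87), *CCL20*, an attractant of mucosal lymphocytes, 331 and 0.235 (8.22) and *CXCL14* 565 and 0.375 (8.83). *CXCL6* was 138 in MDA-MB-415 and listed at 0 in all 5 other lines. *CXCL12* stood apart from its class as the member furthest towards T47D, with the levels given above.

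Complement and acute phase genes had the highest median, 4.19, of the 47 lists so chosen, with 19 of 31 higher and 2 lower and 9 listed at 0 in T47D. *CFB*, which encodes complement factor B, was 41916 in MDA-MB-415 and 10.4 in T47D (11.99), against 6.09 to 66.7 in the other lines. *C3*, the central complement component, was 3951 and 27.4 (7.27), *SAA2*, a serum amyloid gene with near-identical copies, 1727 and 0.236 (10.59), and *LBP*, the lipopolysaccharide-binding protein gene, 175 against a listed 0. Among S100 proteins 9 of 19 were higher and 1 lower: *S100A8* and *S100A9*, which form the calprotectin complex of inflamed epithelium, were 1766 and 6318 against 1.05 and 9.90 (9.90 and 9.32), and *S100A7*, psoriasin, was 1902 against a listed 0.

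Class II presentation was weaker. Of 20 genes 8 were higher and 2 lower, with a median of 1.32 that became 0.63 with a pseudocount of 5. *CD74*, the invariant chain, was 783 and 91.0 (3.24), *HLA-DMA* 421 and 67.4 (2.77) and *CTSS*, the protease that degrades the invariant chain, 245 and 5.86 (5.31). Of 24 nucleic acid sensors 8 were higher and 1 lower. *TMEM173*, which encodes STING, was 88.2 and 1.06 (5.58) with 5.76 to 159 elsewhere, and *C6orf150*, which encodes its partner enzyme cGAS, was 32.2 against a listed 0. Of 28 checkpoint and natural killer ligands 15 were higher and 1 lower, among them *CD274*, the PD-L1 gene, at 43.2 and 0.278 (5.26) and *LGALS9*, the galectin-9 gene, at 356 and 2.58 (6.78). *MICB*, a ligand of natural killer cells named after its values were seen, was the lower member at 6.40 and 142 (-4.12).

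Because these lists are known from white blood cells as well, leukocyte markers were read beside them. Of 23 measured, 6 were listed at 0 in both lines, namely *CD3E*, *CD79B*, *MS4A1*, *LCK*, *ZAP70* and *SPI1*, and the pan-leukocyte gene *PTPRC* was 0.489 in MDA-MB-415 and 0 in T47D. Of the list 5 were higher in MDA-MB-415 and 1 lower, with a median of 0.35. It was 3.10 over the 9 members reaching 5 in either line. That floor drops genes low in both lines and keeps genes high in 1 line alone, so this rise is partly built in. *CD14* and *ITGAM*, myeloid markers, were 176 and 150 in MDA-MB-415 against 0.219 and a listed 0, and *CSF1R* was 6.19 against a listed 0. *TYROBP*, the lower member, ran the other way, at a listed 0 in MDA-MB-415 and 7.66 in T47D. Of 15 stromal and endothelial markers 4 were higher and 1 lower, with summed levels of 601 and 612. In bulk RNA, fewer cells of a type and less RNA per cell cannot be told apart, and the part of other cells in the immune lists was measured only by these markers.

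**Figure D4:**
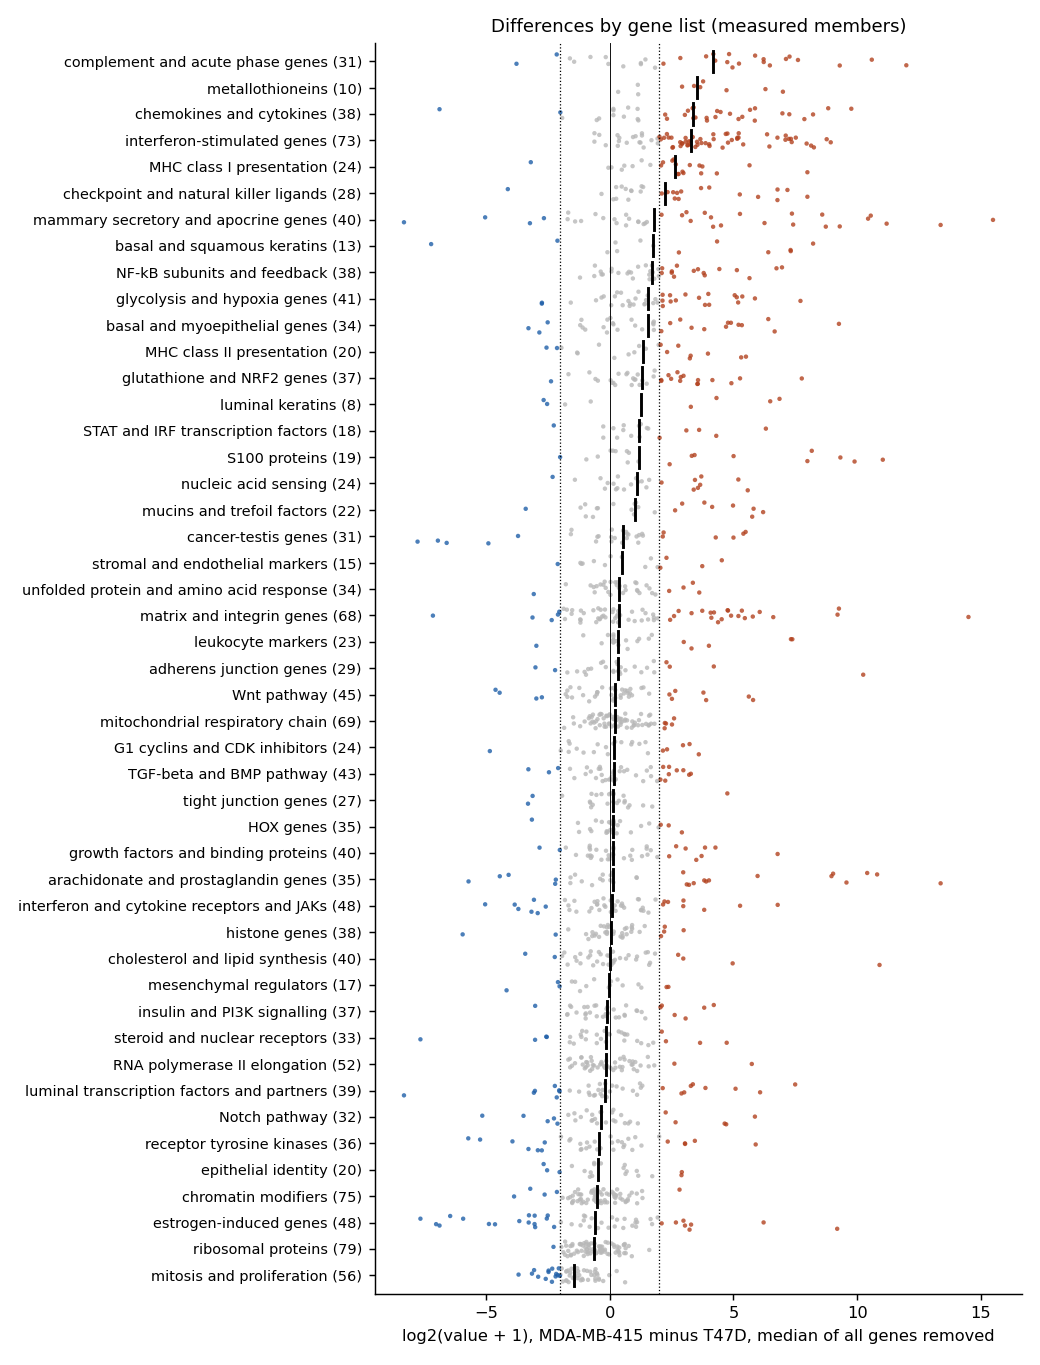
Difference between MDA-MB-415 and T47D for the measured members of each gene list, in log2 units after removal of the median over all genes, with 1 point a gene, the list median as a black bar and dotted lines at 4-fold. The number in brackets counts measured members; interferon-stimulated genes show 54 points right of the upper line and 0 left of the lower line, and mitosis genes 0 and 14.

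Growth factor receptors split between the lines. Of 36 receptor tyrosine kinases, 5 were higher in MDA-MB-415 and 7 lower, with a median of -0.44. *EGFR*, given above, and *FGFR1*, at 7.88 and 149 (-3.94), were lower, and both were below all 5 other lines. *EPHA4* was 3.21 and 175 (-5.25) and *ROR2*, a receptor for Wnt ligands, 0.0396 and 59.7 (-5.72). *MET*, the receptor of hepatocyte growth factor, was higher at 90.3 and 8.30 (3.44), as was *LIFR*, a cytokine receptor gene, at 355 and 2.56 (6.79). The insulin receptor gene *INSR* was 67.7 and 36.2 (1.03) and *IGF1R*, the receptor gene of insulin-like growth factors, 89.9 and 302 (-1.59). Of the pair only MDA-MB-415 received insulin, and any part of that was not tested. The docking protein gene *IRS1* was at 0.420 and 3.64, low in both.

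Of 32 Notch pathway genes 5 were higher and 5 lower. *NOTCH3* was 58.3 and 2339 (-5.16), below the 556 to 1840 of the other lines, while the ligand genes *JAG1* and *DLL4* were higher at 453 and 25 against 19.1 and 0.0995. The Notch feedback gene *NRARP* was 0.720 and 20.4 (-3.49). Of 45 Wnt pathway genes 7 were higher and 4 lower: *WNT4*, a ligand gene downstream of progesterone in the mouse mammary gland, was 187 and 3.22 (5.62). *FZD6*, a Wnt receptor gene, was 51.4 and 0.0449 (5.79). The 4 others ran from 56.2 to 228, so T47D lay far below them and MDA-MB-415 just below them. *TCF7L1*, a nuclear effector gene, was 2.96 and 107 (-4.62). Of 43 TGF-beta and BMP genes 9 were higher and 3 lower, among them the target gene *ID1* at 654 and 109.8 (2.71) and *LTBP1*, a matrix binder of latent TGF-beta, at 28.8 and 322 (-3.29).

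Of 68 matrix and integrin genes 22 were higher and 5 lower, with a median of 0.38. It was 1.27 over the 52 reaching 5 in either line, a floor that 1 line alone can meet. *SPARC*, a secreted collagen-binding protein gene, was 26924 and 0.283 (14.50), against 0.742 to 1782 elsewhere. *TIMP3*, an inhibitor of matrix proteases, was 539 and 0.00886 (9.21), *TNC*, tenascin C, 482 and 4.47 (6.61) and *TGFBI* 388 and 5.44 (6.06). *COL12A1*, a fibril-associated collagen gene, was 22.1 and 3635 (-7.15), and *FN1*, fibronectin, 79.1 and 378 (-2.10, or -1.98 with TMM scaling). Cell junction genes were closer than the matrix genes. Of 29 adherens junction genes 4 (13.8%) were higher and 2 (6.9%) lower, near the 10.6% and 7.84% of all genes. Of 27 tight junction genes 1 (3.7%) was higher and 2 (7.41%) lower. The desmosome genes *PKP1* and *DSG2* were 1098 against a listed 0 and 34.9 against 318 (-3.01).

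Genes of mitosis and DNA replication were lower in MDA-MB-415. Of 56 measured, 14 were at least 4-fold lower and 0 higher. At 2-fold 39 were lower and 0 higher, against 21.8% and 21.5% of all genes. The median was -1.44 and the highest member stood at 0.62. *MCM4*, a helicase subunit gene of DNA replication, was 449 and 4408 (-3.15), *CDC25A*, the phosphatase gene that releases cells into S phase, 10.3 and 160.5 (-3.69), *KIF11*, a spindle motor gene, 122 and 1014 (-2.90) and *BIRC5*, survivin, 59.7 and 373 (-2.48). *MKI67*, the proliferation antigen Ki-67, did not follow, at 125 and 140 (-0.02), and both values were below the 164 to 1242 of the 4 other lines. The G1 genes were mixed, with 5 of 24 higher and 1 lower. *CDK6* was 134 and 11.4 (3.60), the inhibitor genes *CDKN1A* and *CDKN2B* 189 and 12.7 against 46.3 and 2.05 (2.15 and 2.31), and *E2F5* 10.2 and 355 (-4.85). Growth rate was not measured in these data.

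Ribosomal protein genes had a median of -0.63, and 55 of 79 lay within 2-fold. At least 2-fold lower were 23 and higher 1, against 21.8% and 21.5% of all genes, and 1 was 4-fold lower. The median of all highly expressed genes was -0.20. *RPL12* was 509 and 2736 (-2.28) and *RPS3* 862 and 3710 (-1.96), and in both MDA-MB-415 was the lowest of the 6 lines. Respiratory chain genes had a median of 0.21, with 5 of 69 higher and 0 lower at 4-fold, led by *UQCRH* at 1117 and 203 (2.60).

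Glycolysis and hypoxia genes leaned towards MDA-MB-415, with 17 of 41 higher, 2 lower and a median of 1.53. *VEGFA*, the angiogenic growth factor gene, was 1198 and 90.9 (3.85), *EGLN3*, an oxygen-sensing hydroxylase gene, 975 and 4.16 (7.71), *NDRG1* 652 and 20.8 (5.05) and *CA9*, a hypoxia-induced carbonic anhydrase gene, 30.8 against a listed 0. *LDHB*, a lactate dehydrogenase subunit gene, was 1689 and 50.2 (5.19). Of 37 glutathione and NRF2 genes 15 were higher and 1 lower, with a median of 1.31. MDA-MB-415 was grown with added glutathione, and any part of that was not tested. *NQO1*, a quinone reductase gene, was 15620 and 1464 (3.56), *GSTP1*, a glutathione transferase gene, 1280 and 5.53 (7.76) and *ME1*, malic enzyme, 1735 against a listed 0. Metallothioneins, which bind zinc and copper, were higher for 7 of 10 and lower for 0, with a median of 3.53 and 4 listed at 0 in T47D. *MT2A* was 478 and 37.7 (3.77).

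Eicosanoid genes were spread widely, with 14 of 35 higher and 5 lower and a median of 0.12. It was 1.19 over the 29 reaching 5 in either line, a floor that 1 line alone can meet. *HPGD*, which inactivates prostaglandins, was 16412 and 0.707 (13.38), with 9.89 the highest level elsewhere. *AKR1C3*, a prostaglandin and steroid reductase gene, was 11557 and 8.41 (10.41), and its near-identical relatives *AKR1C1* and *AKR1C2* 7824 and 11067 against 15.6 and 5.82. *PLA2G2A*, a secreted phospholipase gene, was 450.4 and *ALOX15B*, a lipoxygenase gene, 686, both listed at 0 in T47D. *ALOX15*, a related gene named after its values were seen, was 0.115 and 63.7 (-5.71). Lipid synthesis genes had a median of 0.01, with 4 of 40 higher and 2 lower.

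Of 75 chromatin modifiers 1 was higher and 4 lower at 4-fold, with a median of -0.53. At 2-fold 5 were higher and 21 lower, against 21.5% and 21.8% of all genes. *KDM2B*, a histone demethylase gene, was 19.1 and 325 (-3.87) and *SMARCC1*, a remodelling complex subunit gene, 436 and 2998 (-2.64), both below all 5 other lines. Of 52 genes of RNA polymerase II elongation 2 were higher and 0 lower, with a median of -0.17. *CDK12*, a polymerase tail kinase gene in the same chromosome region as *ERBB2*, was 263 and 886 (-1.60), and *ELL2*, an elongation factor gene, 944 and 18.5 (5.74).

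The genes furthest towards T47D were of another kind. *ODZ3*, a teneurin of neuronal surfaces, was 1890.3 in T47D against 0.0342 in MDA-MB-415 (-10.69), and 16 was the highest level elsewhere. *KCNK2*, a potassium channel gene, was 822 and 0.453 (-9.0), and *PPP4R4*, a phosphatase subunit gene, 633 and 1.6 (-7.78), against at most 0.861 elsewhere. *MYEF2* was 489 and 1.01 (-7.78), but here MDA-MB-415 stood away, with 18.9 to 689 in the other lines. The GAGE cancer-testis antigens of the X chromosome, near-identical copies that cannot be told apart, supplied 8 of the 15 lowest genes, such as *GAGE2D* at 2209 and 4.70 (-8.46). MDA-MB-415 had other members of that class, *SSX1* at 37.2 against a listed 0 and *SSX2* at 50.8 against 0.273 (5.49). Of 31 cancer-testis genes in the list 6 were higher and 5 lower.

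The 4 other lines were used to place the pair for each gene that was apart. These genes were picked for their gap, so a line beyond the others is partly built in. The same split over all genes was not computed. Ranges used values as deposited, and a line listed at 0 cannot lie below another line at 0. That limit can touch the 409 higher genes at 0 in T47D and the 154 lower genes at 0 in MDA-MB-415. Of the 1734 genes higher in MDA-MB-415, 1053 (60.7%) had MDA-MB-415 above all 4 others and T47D not below all of them, 195 (11.2%) had only T47D below all 4, 172 (9.92%) had both, and 314 (18.1%) neither. Of the 1287 lower genes the split was even, with 396 (30.8%) where only MDA-MB-415 lay below the 4 others, 425 (33.0%) where only T47D lay above them, 171 (13.3%) with both and 295 (22.9%) with neither. *RPS6KA3*, which encodes the kinase RSK2 and was chosen after its values were seen, is a case of both. T47D stood at 0.391 and MDA-MB-415 at 955, below and above the 248 to 698 of the 4 others.

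Genes that were apart also lay next to each other. With 15958 genes (97.2%) matched to RefSeq and 15930 of them placed in chromosome order, there were 31 runs of at least 4 neighbouring measured genes at least 4-fold higher in MDA-MB-415, with 180 genes, and 10 runs lower, with 64 genes. These runs were looked for after the data had been seen. The longest higher run held 17 genes on chromosome 1, from *SPRR1A* to *S100A5*, with a median of 4.64, and covered cornified envelope and S100 genes. On chromosome 12 all 12 measured genes from *KRT7* to *KRT5* were higher, with a median of 6.45. On chromosome 6, runs of 9 genes from *HCG4* to *ZNRD1* and of 7 genes from *RNF39* to *HLA-L* lay close together. The second of these held *TRIM31*, *TRIM40*, *TRIM10* and *TRIM15*, ubiquitin ligase genes at 1797, 1029, 1350.5 and 1275 in MDA-MB-415. All of these except *TRIM31* had a value of 0 in T47D and in the 4 lines outside the pair.

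On chromosome 11, 9 genes from *TPCN2* to *CTTN* were higher by 2.12 to 5.23. They include *CCND1*, *ANO1*, a chloride channel gene at 5510 and 161 (5.23), and *FADD*, a death receptor adaptor gene at 156 and 23.4 (2.83), all but *CCND1* named after their values were seen. The next measured gene, *SHANK2*, was not apart. On the other side *MRGPRF*, at 0 in both lines, broke the run, and *MRPL21* and *IGHMBP2* beyond it were higher by 3.42 and 2.42. DNA copy number was not measured in these data, and its part in this run was not tested. A run of 9 UGT1A genes on chromosome 2 shares exons, 7 of them with identical values, and counts as 1 locus. Of the lower runs the longest, 22 protocadherin gamma genes on chromosome 5, also share exons, with differences between -3.71 and -4.09. Over genes reaching 20 in the higher line, the chromosome medians ran from -0.86 on chromosome 3 to 0.78 on chromosome 22.

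**Figure D5:**
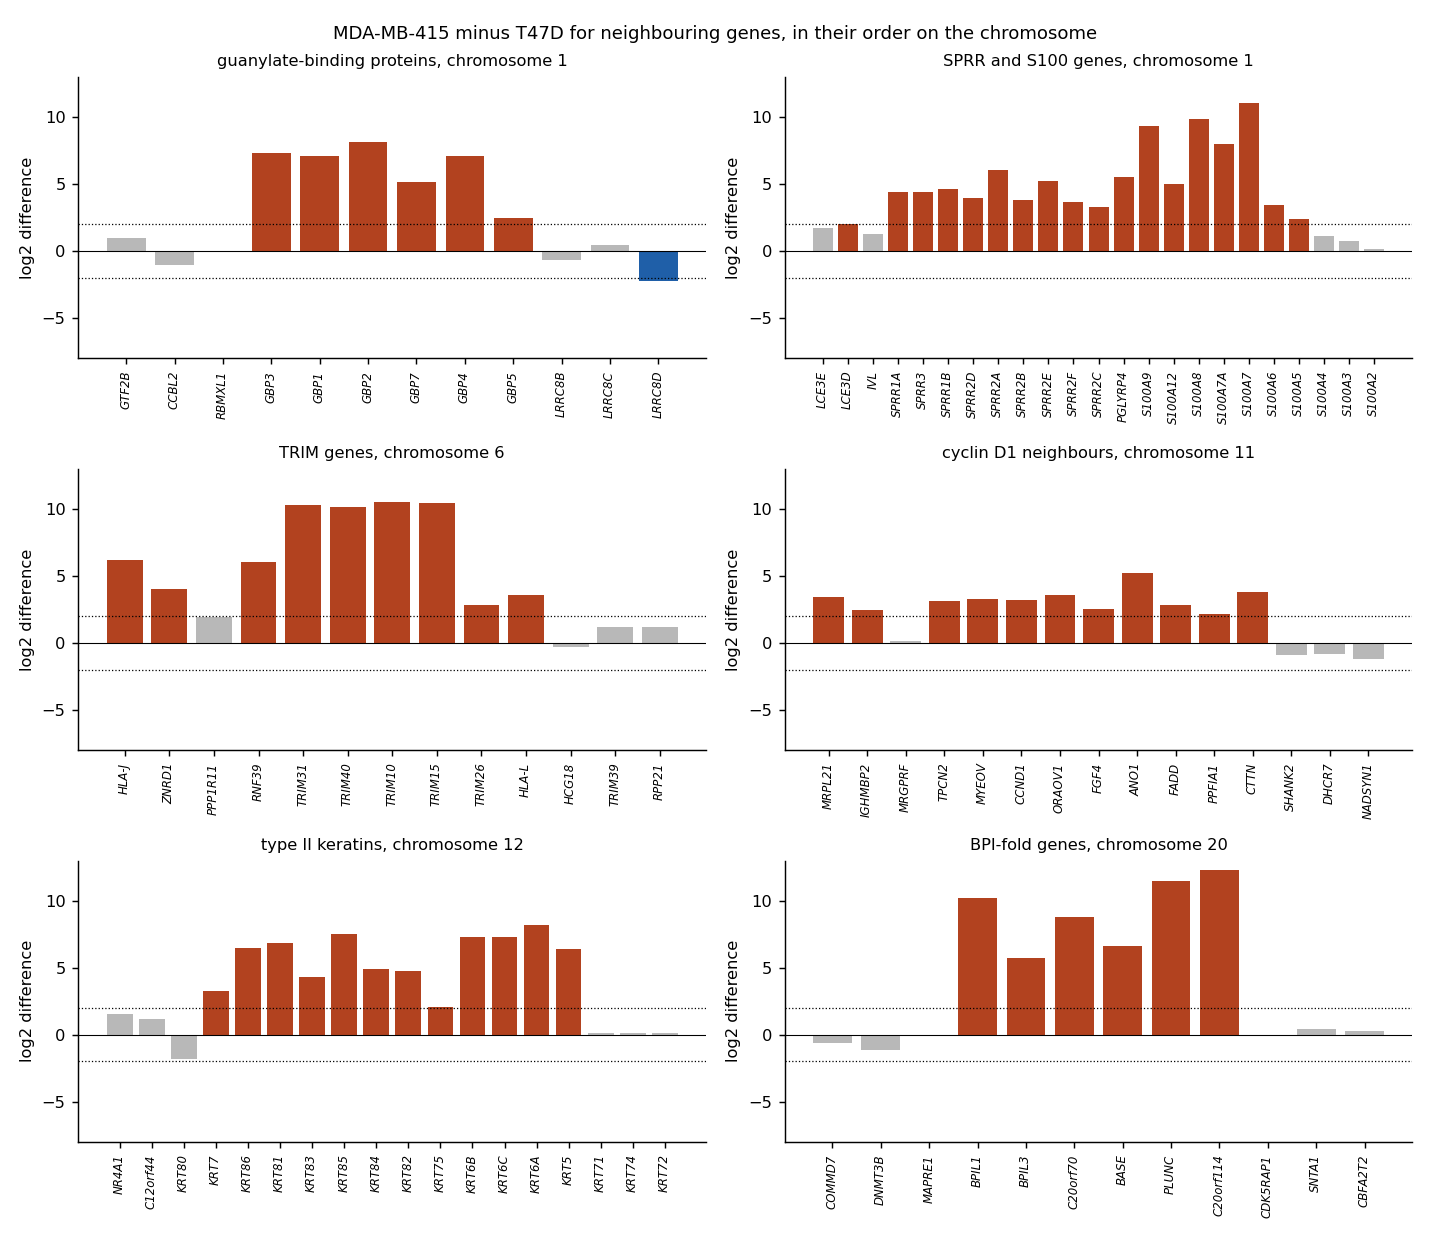
Difference between MDA-MB-415 and T47D (log2 units, median removed) for measured genes in chromosome order in 6 windows, with red bars for genes at least 4-fold higher in MDA-MB-415, blue for at least 4-fold lower, grey for the rest and dotted lines at 4-fold. A gene listed at 0 in T47D enters with that 0; in the keratin window 12 bars in a row are red, and in the cyclin D1 window 9.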

How the data were processed

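Messenger RNA libraries (PrepX mRNA Library kit) of 6 breast cancer lines were sequenced, per the labels' protocols. The deposited values are read as RPKM added up over each gene's exons: no label or header states the unit, which was inferred from the values. CASAVA 1.8, RSEM and build hg19 are named in the submitters' processing notes; aligner settings, annotation and strand are not given in the sources used here. Of 16444 entries, 22 names turned into dates and 4 entries sharing 2 names were left out, leaving 16418 genes; 27 repeat another gene's values.

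With 1 library a line, each difference is log2(value + 1) in MDA-MB-415 minus T47D, less the median over all genes; 4-fold counts as apart and no p-value is given. Alternatives were other scalings, pseudocounts, folds and filters. Named genes were up to 6 a list with the largest difference among those reaching 5 in a line, key genes whatever their value, and 15 at each end reaching 20; others are said to be chosen after their values were seen, as were the genes drawn by sample. The members and the 47 lists were chosen with earlier results of these data known. Depth came from low values that were whole within 0.02 reads, 81.7% in MDA-MB-415 and 73.8% in T47D. RefSeq GRCh38.p14 gave gene order and promoters only. Python 3.11.15, numpy 2.4.6 and pandas 2.3.3 were used, and the scripts were tested on simulated data. A few named genes are not reported here.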

Additional observations from a re-analysis of the deposited data

How the results depend on the processing

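Of the 1734 genes higher and 1287 lower at 4-fold in MDA-MB-415, a 2-fold limit gave 3533 and 3577 and an 8-fold limit 1022 and 566. A pseudocount of 5 gave 1183 higher and 846 lower, and one of 0.1 gave 2329 and 1778. Scaling moved these counts by less than 1.5 times, to 1580 and 1493 as deposited, 1824 and 1203 with TMM factors and 1775 and 1274 with upper-quartile factors. A floor of 5 in either line left 13386 genes, with 1693 and 1151. Of 322 named genes 271 were apart, and 239 of these stayed apart in the same direction under all 7 alternatives at 4-fold, while none of the 271 reversed. With a pseudocount of 5, 29 named genes dropped under 4-fold, such as *DCN*, *TLR1* and *GZMB*. The medians of the mucin list (0.62), the class II list (0.63), the sensing list (0.52), the luminal keratins (0.74), the basal and myoepithelial list (0.95) and the S100 proteins (0.92) then dropped under 1. Over genes reaching 5 in either line the medians of the matrix (1.27), eicosanoid (1.19) and leukocyte (3.10) lists were above 1. Such a floor keeps genes high in 1 line alone and drops genes low in both, so these rises are partly built in. No paired analysis was possible because each line has 1 library and the replicate numbers are only names. The precision between cultures of a line is unknown.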
